A study of Homo sapiens with 12 samples.

Results

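The 39 genes described here encode the machinery of mitosis and were chosen by name, from textbook roles in cell division. Earlier results of these data were known when the choice was made. All 39 were found among the 34626 genes of the deposited table, and each was followed through all 12 RNA-seq libraries of the study. The libraries come from MV4-11 and THP-1, established human acute myeloid leukaemia lines with monocytic features. Each line carried either a short hairpin RNA directed at CYTH4 or a control hairpin, and the study asked what silencing CYTH4 does to transcript levels. CYTH4 encodes cytohesin 4, an activator of ARF GTPases. The groups are MV4-11 shCYTH4, MV4-11 shControl, THP-1 shCYTH4 and THP-1 shControl, with 3 libraries in each. The labels give neither the number of hairpins used, nor the time after their delivery, nor whether the 3 libraries of a group were separate cultures. The tests therefore reflect the spread among these libraries, which may be technical.

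A cell enters mitosis when CDK1, bound to A- and B-type cyclins and released by CDC25 phosphatases, phosphorylates its targets together with the Polo and Aurora kinases. Chromosomes then attach through kinetochores to a spindle built by motors and microtubule binders, and the spindle checkpoint holds back the anaphase promoting complex until attachment is complete. CDC20 then activates that complex, which marks cyclin B and securin for destruction so that separase can part the sister chromatids. Most of these genes are transcribed late in the cell cycle through FOXM1 and MuvB complexes acting at promoter elements called CHR. Their promoters often hold CCAAT boxes too, which are a separate element. Proliferating leukaemia cells express these genes strongly.

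The libraries held 71730093 to 77782719 estimated counts. As a check of the labels, CYTH4 itself had 15.7, 15.0 and 15.7 FPKM in THP-1 shCYTH4, against 25.7, 32.2 and 21.0 FPKM in THP-1 shControl, so the groups did not overlap. It was lower in THP-1 with the hairpin (log2 change -0.89, SE 0.19, adjusted p = 0.0338), a call that was lost in 4 of the 6 fits leaving out 1 THP-1 library. CYTH4 had 15.5, 20.7 and 22.3 FPKM in the MV4-11 libraries labelled shCYTH4, against 20.9, 16.0 and 18.1 FPKM in MV4-11 shControl. These MV4-11 values overlapped and the target was not measurably lower (log2 change 0.01, SE 0.19, adjusted p = 0.988), so every MV4-11 direction below compares libraries by their label. LYZ, the monocyte and macrophage lysozyme, averaged 1119 FPKM in MV4-11 shCYTH4, 1707 FPKM in MV4-11 shControl, 705 FPKM in THP-1 shCYTH4 and 331 FPKM in THP-1 shControl. LYZ was the most abundant of 10 monocytic and myeloid markers and does not stand for the others. In MV4-11 shControl against THP-1 shControl, 6 of the 10 had a log2 change below 0 and 4 above (median -0.52). With the hairpin these numbers were also 6 and 4 in each line, with a median of -0.12 in MV4-11 and -0.17 in THP-1. FPKM scales fragments to transcript length and library depth, so levels can be compared between genes. Summed markers of T cells, B cells, erythroid cells, megakaryocytes and epithelial or fibroblast cells reached at most 1.03, 4.62, 0.980, 2.66 and 4.98 FPKM in a library. Within their groups, the pair of libraries that excluded MV4-11 shCYTH4 replicate 1, MV4-11 shControl replicate 1 or THP-1 shCYTH4 replicate 3 was the most alike. The SD of the log2 difference between such a pair was 0.40, 0.46 and 0.38, against 0.59 and 0.61, 0.62 and 0.62, and 0.60 and 0.62 in the pairs that held the named library. For the fitted medians of each hairpin comparison below, and for genes described there as set apart by 1 of these libraries, the value without it is given too.

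Averaged over the 12 libraries, the 39 genes spanned 0.825 FPKM for CENPE, a kinetochore motor, to 244 FPKM for CDC20. Genes with at least 1 FPKM in at least 3 libraries were tested, 12350 in all, and 38 of the 39 were among them. CENPE was not, since it reached 1 FPKM in 1 library. The CENPE level was 0.585, 0.292 and 0.294 FPKM in the MV4-11 libraries labelled shCYTH4, against 0.422, 0.973 and 0.895 FPKM in MV4-11 shControl, and 0.683, 0.911 and 2.06 FPKM in THP-1 shCYTH4, against 0.911, 0.977 and 0.906 FPKM in THP-1 shControl. The next lowest gene, ASPM, a spindle pole protein, reached 1 FPKM in 9 libraries and averaged 1.56 FPKM. Next to CDC20, the most abundant were CCNB1 at 60.5, UBE2C at 57.9 and TPX2 at 57.8 FPKM.

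The promoters of these genes shared letters that the choice of genes did not use. RefSeq windows of GRCh38.p14, from 250 bases before to 50 bases after a gene's start, were matched by symbol for 32 of the 39. The letters TTTGAA or TTTAAA, the usual forms of the CHR element, stood on either strand in 29 of these 32 genes (90.6%), against 27.9% of all 27305 genes with a window. TTTAAA reads the same on both strands and was counted once. It can share a base with CCAAT, which it does not in the sequences printed below. With TTCGAA added, a rarer form that is also its own reverse complement, the share was 93.8%, against 29% of all genes. CCAAT on either strand was in 27 of the 32 (84.4%), against 39.7% of all genes, and 25 (78.1%) held both kinds, against 11.7%. The letters were not particular to these genes. Among 53 other mitotic genes with a window, 71.7% held any of the 3 CHR forms, 67.9% held CCAAT and 54.7% held both kinds, and among 27 S phase genes these shares were 14.8%, 59.3% and 11.1%. The 150 bases before the start are printed 5′ to 3′ for the 3 genes with the lowest p in MV4-11 among those with a window and for the gene with the lowest p in THP-1, with CHR-type letters and CCAAT in capitals.
CDC20 (chr1:43358831-43358980, plus strand): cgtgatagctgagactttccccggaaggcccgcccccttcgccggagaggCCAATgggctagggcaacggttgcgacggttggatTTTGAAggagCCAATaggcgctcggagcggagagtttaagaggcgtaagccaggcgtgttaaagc
PLK1 (chr16:23678739-23678888, plus strand): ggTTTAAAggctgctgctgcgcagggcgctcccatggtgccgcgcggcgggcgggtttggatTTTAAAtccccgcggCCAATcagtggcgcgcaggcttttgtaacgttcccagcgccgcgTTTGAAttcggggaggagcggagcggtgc
CCNB1 (chr5:69167000-69167149, plus strand): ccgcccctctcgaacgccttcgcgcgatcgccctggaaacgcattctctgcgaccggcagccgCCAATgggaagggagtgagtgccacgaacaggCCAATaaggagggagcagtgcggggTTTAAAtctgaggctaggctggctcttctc
PRC1 (chr15:90994536-90994685, minus strand): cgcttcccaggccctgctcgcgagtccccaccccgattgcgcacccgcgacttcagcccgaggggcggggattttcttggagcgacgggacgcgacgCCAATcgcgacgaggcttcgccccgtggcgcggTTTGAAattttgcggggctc
Within the 150 bases printed, CDC20 and CCNB1 each carried CCAAT at 2 places and 1 CHR-type match. That match began 65 bases before the start in CDC20 and 30 in CCNB1. PLK1 held 3 CHR-type matches, at 148, 88 and 29 bases, and PRC1 held 1, at 20 bases. These letters thus stood before genes with log2 changes in MV4-11 of -0.75 (CDC20), -0.59 (PLK1), -0.40 (CCNB1) and 0.09 (PRC1). A match describes the sequence and does not show that a factor binds there.

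In MV4-11, CDC20 fell and was the 1 member of 38 that passed the test. CDC20 was called at an adjusted p under 0.05 by edgeR's quasi-likelihood test, against 0.599% of all tested genes called lower, 0.526% called higher and 1.13% called in either direction. The log2 change was below 0 for 27 members and above 0 for 11, with a median of -0.12, while 49.7% of all tested genes were below 0 and 50.1% above, with a median of 0.00075. At an unadjusted p under 0.05, 7 members were lower and 0 were higher, against 6.58% and 7.29% of all tested genes. These 7 were CDC20, PLK1, CCNB1, CDCA8, KIF20A, UBE2C and INCENP, and 6 of them did not pass the adjusted test. In 8 members all 3 libraries labelled shCYTH4 lay below all 3 controls in FPKM, against 8.84% of all tested genes. CDC25B joined the 7 just named. In 1 member, CDC25C, all 3 lay above, against 16.0% of all tested genes. In bulk RNA, fewer cells in mitosis and less RNA per mitotic cell cannot be told apart.

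**Figure D1:**
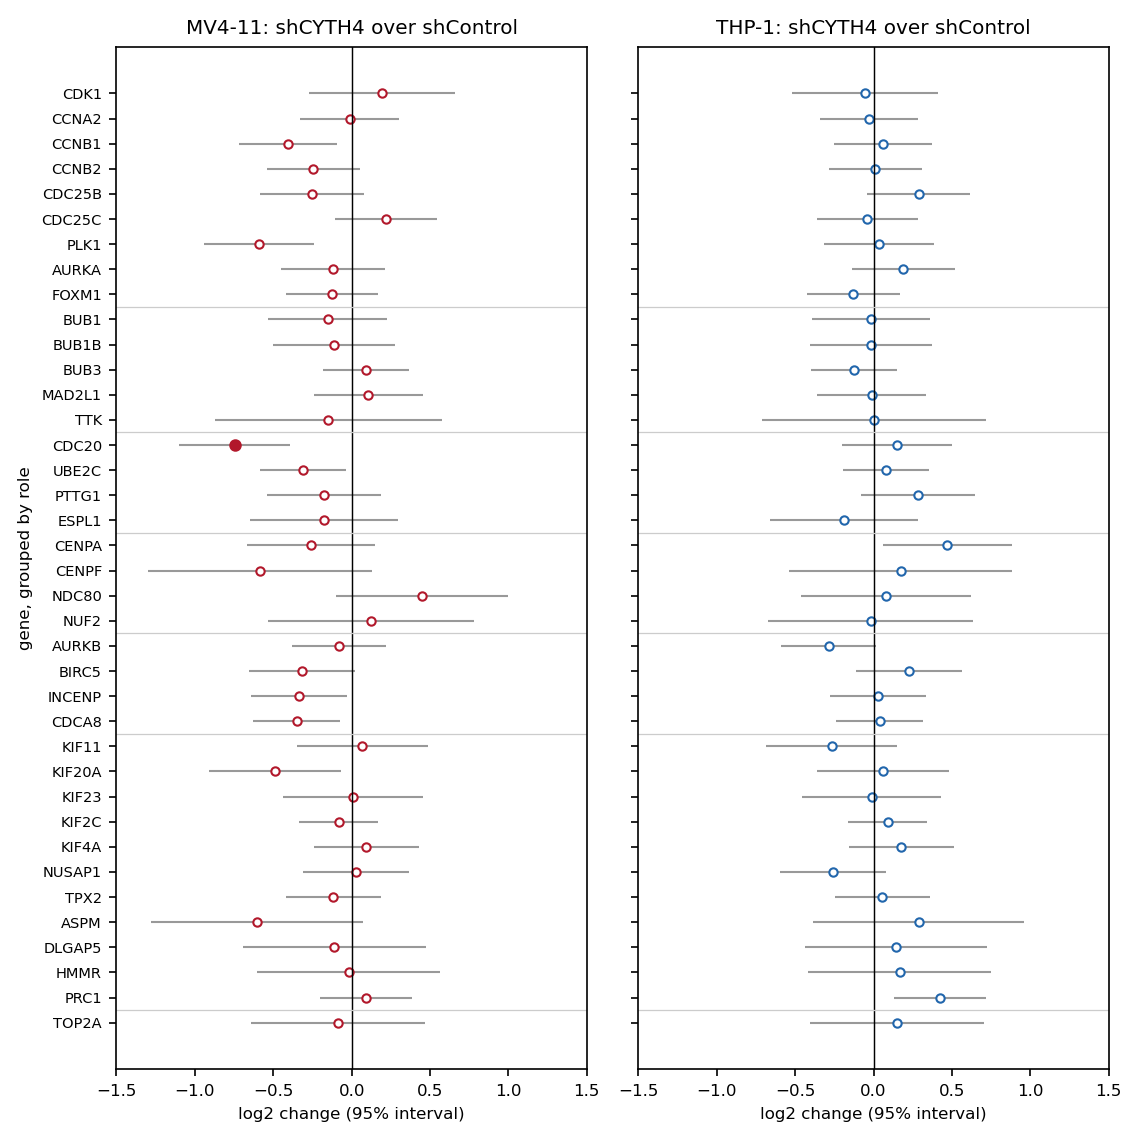
Log2 change with its 95% interval for 38 mitosis genes, shCYTH4 over shControl, in MV4-11 on the left and THP-1 on the right (3 libraries a group), grouped by role with grey lines between roles. The filled point, CDC20 in MV4-11 at -0.75, passed the test and open points did not; 27 points lie below 0 in MV4-11 and 14 in THP-1.

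In THP-1, where the target was lower, 0 of the 38 members passed the test with edgeR, and the lowest adjusted p was 0.133, for PRC1. Of all tested genes, 1.65% were called, 0.607% higher and 1.04% lower. DESeq2 and limma also called 0 members. At an unadjusted p under 0.05, PRC1 and CENPA were higher and 0 members were lower, against 7.24% and 8.81% of all tested genes. The log2 change was above 0 for 24 members and below 0 for 14, against 48.8% and 51.1% of all tested genes, with a median of 0.05 beside -0.01 over all of them. In 4 members (PTTG1, CENPA, BIRC5 and PRC1) the 3 shCYTH4 libraries lay above the 3 controls, against 17.1% of all tested genes, and in 0 members they lay below, against 6.63%.

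The THP-1 median rests on replicate 3 of the shCYTH4 group. Relative to the mean of the controls, the per-library median over the 38 members was -0.01, -0.19 and 0.26 (log2 CPM, which scales counts to library depth) in THP-1 shCYTH4, against 0.10, -0.00 and -0.09 in THP-1 shControl. In shCYTH4 replicate 3, 33 members were above the control mean, while in replicate 2 of the same group 32 were below it. Without replicate 3 the fitted THP-1 median was -0.12, and 0 members were called. In MV4-11 the per-library median was 0.06, -0.20 and -0.20 in the libraries labelled shCYTH4, against -0.06, 0.05 and 0.07 in shControl. There 31 members lay below the control mean in each of shCYTH4 replicates 2 and 3, and 17 in replicate 1. Leaving out shCYTH4 replicate 1 took the MV4-11 median to -0.22, and leaving out shControl replicate 1 took it to -0.17.

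**Figure D2:**
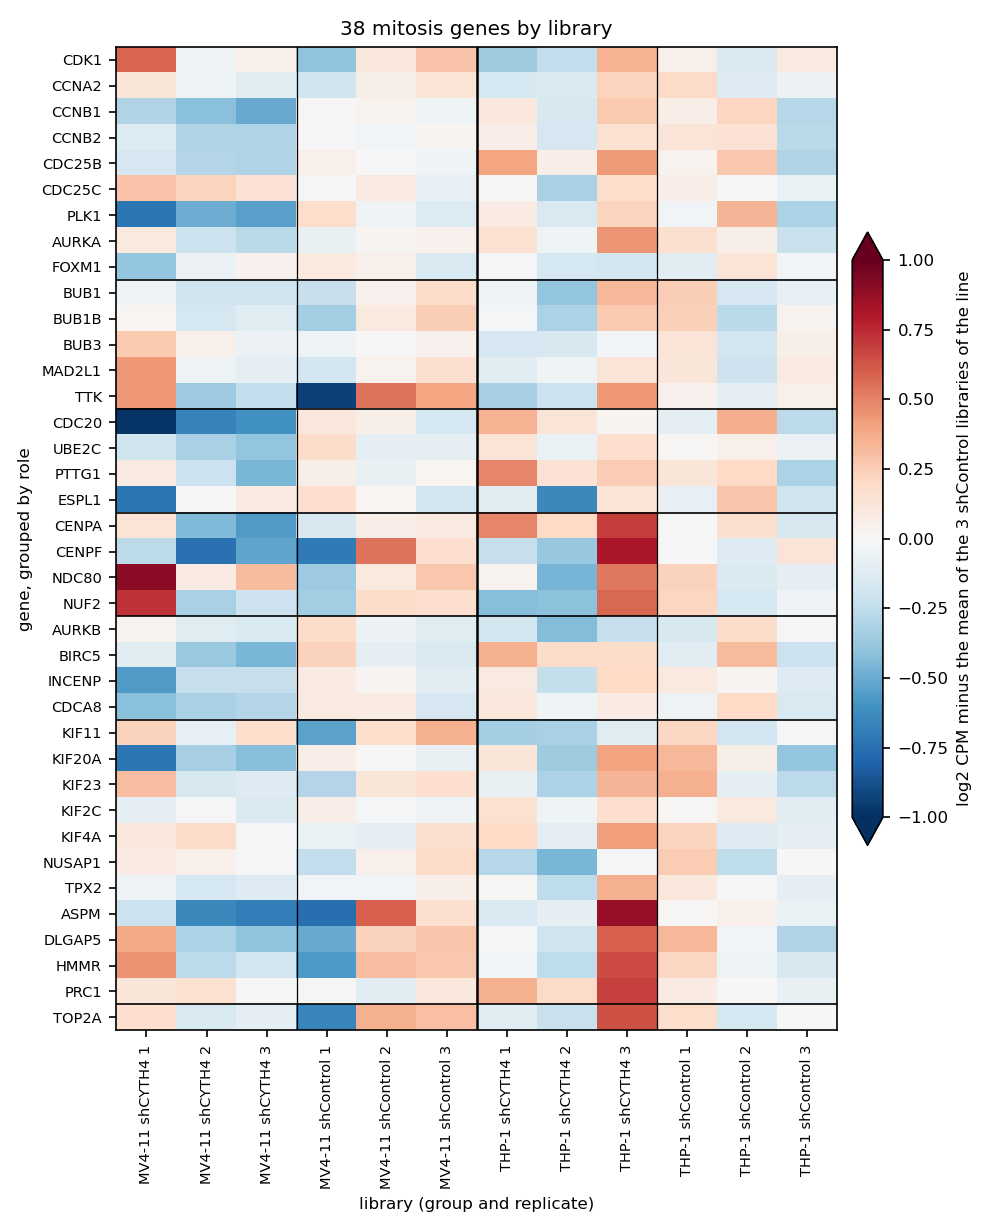
Each cell shows 1 mitosis gene (rows, grouped by role) in 1 library (columns), as log2 CPM minus the mean of the 3 shControl libraries of its line, on a colour scale cut at -1 and 1. THP-1 shCYTH4 replicate 3 is red in 33 of 38 rows, MV4-11 shCYTH4 replicates 2 and 3 are blue in 31 each, and the libraries of 1 group differ among themselves.

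The response of the 2 lines was set side by side as MV4-11 response minus THP-1 response. The difference was below 0 for 25 of 38 members and above 0 for 13, against 47.6% and 52.4% of all tested genes, with a median of -0.18 beside 0.02 over all of them. By edgeR 0 members passed the test, against 0.866% of all tested genes (0.413% higher and 0.453% lower), and CDC20 had the lowest adjusted p at 0.0903 (difference -0.90, SE 0.24, 95% interval -1.40 to -0.40). At an unadjusted p under 0.05, 7 members were lower and 0 were higher, against 6.57% and 7.62% of all tested genes. The 7 were CDC20, CENPA, PLK1, BIRC5, CDC25B, CCNB1 and UBE2C. DESeq2 and limma on log2(FPKM + 1) each called CDC20 alone. Without THP-1 shCYTH4 replicate 3 the median was 0.015, so the negative median rests on that library. CDC20 was called by edgeR in that fit (difference -0.96, adjusted p = 0.0248). Over the 12 fits leaving out 1 library, its difference was -1.10 to -0.77. It was called in 2 of these fits and not in 10 (adjusted p up to 0.251). Of all 23 alternatives, 6 called it, so the direction held and the call mostly did not.

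The anaphase genes held the largest change of the 38 in MV4-11. CDC20, the activator of the anaphase promoting complex (ENSG00000117399, chromosome 1, 43358981 to 43363203, plus strand), had 52.0, 62.7 and 66.2 FPKM in the MV4-11 libraries labelled shCYTH4, against 98.9, 101 and 87.9 FPKM in MV4-11 shControl. The 3 libraries labelled shCYTH4 were all below the lowest control. CDC20 fell to 59.6% of its control level (95% interval 46.6% to 76.1%; log2 change -0.75, SE 0.17, adjusted p = 0.0417, edgeR). The call was lost in each of the 6 fits that left out 1 MV4-11 library, with a log2 change of -0.81 to -0.64 and an adjusted p of 0.0547 to 0.145. It was also lost in 3 of the 6 fits that left out 1 THP-1 library (adjusted p up to 0.0578), and kept without THP-1 shCYTH4 replicate 3 (adjusted p = 0.0219). CDC20 had 503, 430.0 and 412 FPKM in THP-1 shCYTH4, against 357, 452 and 308 FPKM in THP-1 shControl. These groups overlapped (log2 change 0.15, SE 0.17, adjusted p = 0.739).

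Of the other anaphase genes, UBE2C, the ubiquitin-conjugating enzyme of that complex, had 80.1, 71.5 and 68.5 FPKM in the MV4-11 libraries labelled shCYTH4, against 93.2, 81.4 and 83.4 FPKM in MV4-11 shControl, without overlap (log2 change -0.31, SE 0.13, adjusted p = 0.296). In THP-1 its log2 change was 0.08 (SE 0.13). PTTG1, securin, had 29.3, 23.1 and 19.6 FPKM in the MV4-11 libraries labelled shCYTH4, against 25.5, 24.6 and 26.9 FPKM in MV4-11 shControl, with overlap and a log2 change of -0.18 (SE 0.17). PTTG1 had 33.4, 26.2 and 29.1 FPKM in THP-1 shCYTH4, against 25.1, 24.3 and 17.9 FPKM in THP-1 shControl. Its THP-1 groups did not overlap, yet the change missed the threshold (log2 change 0.28, SE 0.17, adjusted p = 0.456). ESPL1, separase, had 5.97, 9.59 and 10.2 FPKM in the MV4-11 libraries labelled shCYTH4, against 9.88, 9.44 and 8.32 FPKM in MV4-11 shControl, and shCYTH4 replicate 1 was the lowest of all 6. Its log2 change was -0.18 (SE 0.22) in MV4-11, or 0.04 without that library, and -0.19 (SE 0.22) in THP-1. Taken per library, the median of the 4 anaphase genes was below the control mean in all 3 MV4-11 libraries labelled shCYTH4, at -0.46, -0.27 and -0.42, against 0.14, -0.03 and -0.13 in shControl.

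Among the 9 genes of mitotic entry, 7 had a log2 change below 0 in MV4-11 and 4 did in THP-1, and 0 passed the test in either line with edgeR. At an unadjusted p under 0.05, 2 were lower in MV4-11 and 0 in THP-1, against 6.58% and 8.81% of all tested genes. PLK1, Polo-like kinase 1 (ENSG00000166851, chromosome 16, 23677656 to 23690366, plus strand), had 31.4, 35.8 and 34.7 FPKM in the MV4-11 libraries labelled shCYTH4, against 52.2, 47.8 and 45.4 FPKM in MV4-11 shControl. The groups did not overlap, but the adjusted p missed the threshold (log2 change -0.59, SE 0.16, adjusted p = 0.0995). DESeq2 called PLK1 (adjusted p = 0.0256), and the other alternatives did not. PLK1 had 39.9, 33.7 and 45.1 FPKM in THP-1 shCYTH4, against 35.8, 42.4 and 28.4 FPKM in THP-1 shControl, with overlap (log2 change 0.04, SE 0.16, adjusted p = 0.956).

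CCNB1, cyclin B1, the partner of CDK1, had 62.0, 55.7 and 52.7 FPKM in the MV4-11 libraries labelled shCYTH4, against 68.7, 73.7 and 71.4 FPKM in MV4-11 shControl. All 3 labelled shCYTH4 were below the controls (log2 change -0.40, SE 0.15, adjusted p = 0.233). In THP-1 the change was 0.06 (SE 0.15), and replicate 3 of the shCYTH4 group, at 70.0 FPKM, was its highest library, without which the change was -0.03. CCNB2, cyclin B2, had 34.3, 29.8 and 29.9 FPKM in the MV4-11 libraries labelled shCYTH4, against 33.6, 34.9 and 37.1 FPKM in MV4-11 shControl, where shCYTH4 replicate 1 overlapped the controls (log2 change -0.24 (SE 0.14), or -0.30 without it). CCNA2, cyclin A2, which also acts in S phase, had 45.2, 39.3 and 37.7 FPKM in the MV4-11 libraries labelled shCYTH4, against 32.3, 40.8 and 44.2 FPKM in MV4-11 shControl, fully intermixed (log2 change -0.01 (SE 0.15)). CDK1, the mitotic kinase itself, had 19.0, 11.9 and 12.8 FPKM in the MV4-11 libraries labelled shCYTH4, against 8.53, 12.9 and 14.9 FPKM in MV4-11 shControl. Its libraries overlapped and the log2 change was 0.19 (SE 0.22) in MV4-11, or -0.03 without shCYTH4 replicate 1 and 0.02 without shControl replicate 1. In THP-1 the CDK1 value was -0.05 (SE 0.22), or -0.29 without shCYTH4 replicate 3.

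The 2 CDC25 phosphatases, which activate CDK1, lay on opposite sides in MV4-11. CDC25B had 16.0, 14.2 and 14.2 FPKM in the MV4-11 libraries labelled shCYTH4, against 16.5, 16.9 and 16.7 FPKM in MV4-11 shControl, lower without overlap (log2 change -0.25, SE 0.16, adjusted p = 0.482). CDC25C had 7.61, 7.08 and 6.76 FPKM in the MV4-11 libraries labelled shCYTH4, against 5.51, 6.25 and 5.69 FPKM in MV4-11 shControl, higher without overlap (log2 change 0.22, SE 0.15, adjusted p = 0.541). Neither passed the test. In THP-1 CDC25B had 9.45, 7.46 and 9.90 FPKM in THP-1 shCYTH4, against 7.12, 7.67 and 5.46 FPKM in THP-1 shControl, with overlap, and its log2 change of 0.29 (SE 0.16) was the highest of the entry genes. AURKA, the centrosomal Aurora kinase, had log2 changes of -0.12 (SE 0.15) in MV4-11 and 0.19 (SE 0.15) in THP-1. FOXM1, the transcription factor of this programme, had 20.6, 25.1 and 27.2 FPKM in the MV4-11 libraries labelled shCYTH4, against 25.7, 26.4 and 23.3 FPKM in MV4-11 shControl, and 21.5, 19.1 and 19.6 FPKM in THP-1 shCYTH4, against 19.5, 21.3 and 20.0 FPKM in THP-1 shControl. FOXM1 overlapped in both lines, with log2 changes of -0.13 and -0.13.

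**Figure D3:**
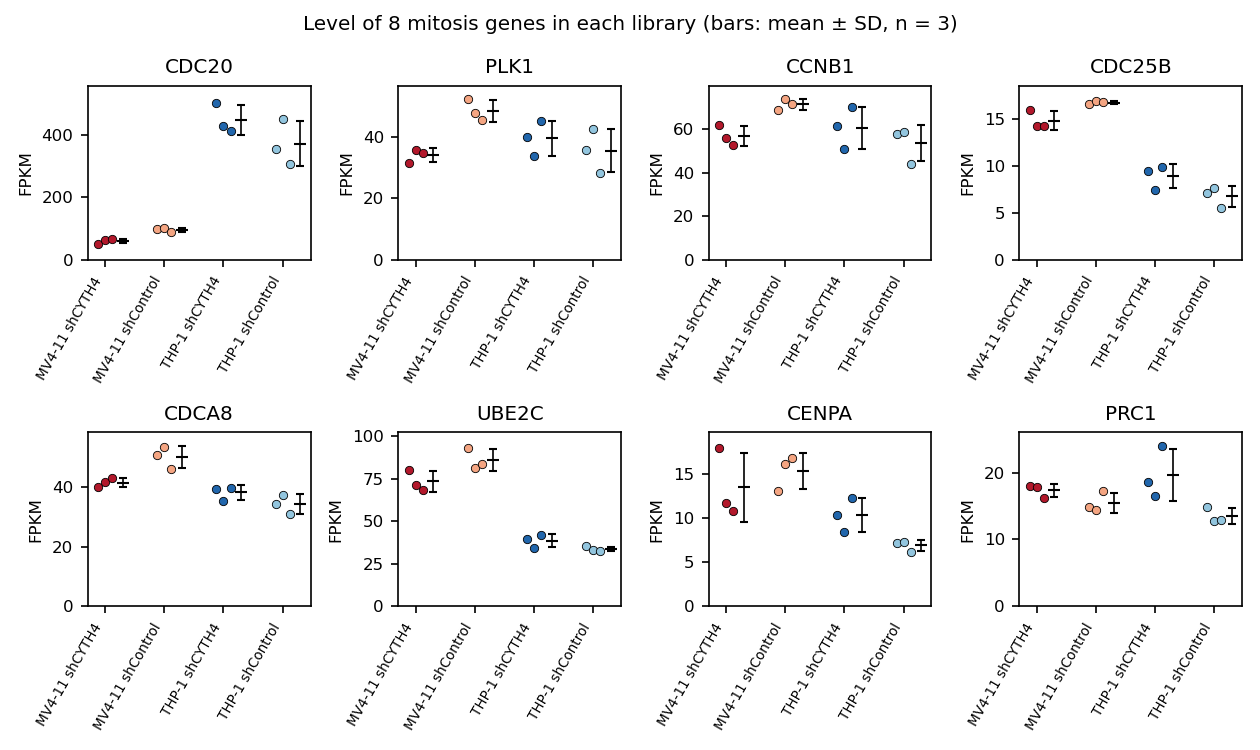
FPKM of 8 mitosis genes in each of the 12 libraries (points), with mean ± SD per group beside them (n = 3); every vertical axis starts at 0. CDC20 lies between 52.0 and 66.2 FPKM in MV4-11 shCYTH4 and between 87.9 and 101 FPKM in MV4-11 shControl, while both THP-1 groups lie at 308 FPKM and above.

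Of the 5 spindle checkpoint genes, 0 passed edgeR's test and 0 had an unadjusted p under 0.05 in either line, and DESeq2 and limma called 0. Of all tested genes, edgeR called 1.13% in MV4-11 and 1.65% in THP-1, and 13.9% and 16.0% had an unadjusted p under 0.05. These shares are also the background of the roles that follow. BUB3, the shared checkpoint and kinetochore adaptor, had 39.5, 33.1 and 31.0 FPKM in the MV4-11 libraries labelled shCYTH4, against 28.3, 31.1 and 32.8 FPKM in MV4-11 shControl, with 31.0 inside the control range (log2 change 0.09 (SE 0.13)). In THP-1 BUB3 had 16.8, 16.8 and 19.0 FPKM in THP-1 shCYTH4, against 20.0, 14.7 and 18.5 FPKM in THP-1 shControl, also overlapping (log2 change -0.12 (SE 0.13)). BUB1, a checkpoint kinase, had 14.1, 12.3 and 12.3 FPKM in the MV4-11 libraries labelled shCYTH4, against 11.0, 14.0 and 15.9 FPKM in MV4-11 shControl, and its log2 change was -0.15 (SE 0.18). In THP-1 the BUB1 estimate was -0.02 (SE 0.18). BUB1B, which encodes BUBR1, had log2 changes of -0.11 (SE 0.18) in MV4-11 and -0.02 (SE 0.18) in THP-1. MAD2L1, the inhibitor of CDC20, had 19.1, 13.3 and 13.0 FPKM in the MV4-11 libraries labelled shCYTH4, against 11.1, 13.7 and 15.3 FPKM in MV4-11 shControl, with shCYTH4 replicate 1 above the rest (log2 change 0.11 (SE 0.16), or -0.08 without it). TTK, the kinase MPS1, had 3.96, 2.21 and 2.41 FPKM in the MV4-11 libraries labelled shCYTH4, against 1.36, 4.02 and 3.72 FPKM in MV4-11 shControl. The lowest TTK value was in shControl replicate 1, and the log2 change was -0.15 (SE 0.33), or -0.48 without that library.

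At the centromere and kinetochore, the libraries of 1 group differed widely among themselves, and 0 of the 4 tested genes passed the test with edgeR, DESeq2 or limma in either line. CENPA was higher in THP-1 at an unadjusted p under 0.05, against 7.24% of all tested genes. The per-library median of the 4 tested genes was 0.43, -0.38 and -0.37 in MV4-11 shCYTH4, against -0.36, 0.14 and 0.16 in MV4-11 shControl. It was -0.10, -0.39 and 0.63 in THP-1 shCYTH4, against 0.11, -0.14 and -0.06 in THP-1 shControl. CENPA, the centromeric histone H3 variant (ENSG00000115163, chromosome 2, 26764289 to 26801067, plus strand), had 10.3, 8.43 and 12.2 FPKM in THP-1 shCYTH4, against 7.15, 7.30 and 6.18 FPKM in THP-1 shControl. Its THP-1 groups did not overlap, and the change missed the threshold (log2 change 0.47, SE 0.19, adjusted p = 0.245). CENPA had 17.9, 11.6 and 10.8 FPKM in the MV4-11 libraries labelled shCYTH4, against 13.0, 16.1 and 16.8 FPKM in MV4-11 shControl, with overlap (log2 change -0.26, SE 0.19, adjusted p = 0.568). CENPA overlaps SLC35F6 over 16943 bases on the same strand, so reads of the 2 genes can be confused there, and SLC35F6 averaged 4.82 FPKM.

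CENPF, a large kinetochore protein, had 3.15, 2.19 and 2.57 FPKM in the MV4-11 libraries labelled shCYTH4, against 2.06, 5.18 and 4.08 FPKM in MV4-11 shControl. The wide spread of the controls left its estimate imprecise (log2 change -0.58, SE 0.33, adjusted p = 0.455), and the log2 change was -0.86 without shControl replicate 1 and -0.72 without shCYTH4 replicate 1. CENPF had 3.76, 3.38 and 7.99 FPKM in THP-1 shCYTH4, against 4.25, 3.59 and 4.53 FPKM in THP-1 shControl, where replicate 3 of the shCYTH4 group was the highest (log2 change 0.17 (SE 0.33), or -0.29 without it). NDC80 and NUF2 encode partners in the microtubule-binding NDC80 complex. NDC80 had 9.32, 5.13 and 6.10 FPKM in the MV4-11 libraries labelled shCYTH4, against 3.45, 5.05 and 5.80 FPKM in MV4-11 shControl, with overlap and a log2 change of 0.45 (SE 0.26), the highest of the 38. Without shCYTH4 replicate 1 the NDC80 value was 0.18, and without shControl replicate 1 it was 0.29. NUF2 had 6.89, 3.23 and 3.54 FPKM in the MV4-11 libraries labelled shCYTH4, against 2.90, 4.48 and 4.52 FPKM in MV4-11 shControl, with shCYTH4 replicate 1 above the rest (log2 change 0.12 (SE 0.31), or -0.29 without it).

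The 4 subunits of the chromosomal passenger complex were below 0 in MV4-11. The per-library median was -0.27, -0.28 and -0.26 in the libraries labelled shCYTH4, against 0.13, -0.02 and -0.13 in shControl, so these 3 were close to one another and below the controls. By edgeR, DESeq2 and limma 0 of the 4 passed the test in either line. In MV4-11, 2 (CDCA8 and INCENP) had an unadjusted p under 0.05, against 13.9% of all tested genes in either direction. CDCA8, borealin, had 40.1, 41.6 and 42.9 FPKM in the MV4-11 libraries labelled shCYTH4, against 50.8, 53.5 and 46.2 FPKM in MV4-11 shControl, without overlap (log2 change -0.35, SE 0.13, adjusted p = 0.242). INCENP, the scaffold, had 18.1, 22.1 and 22.3 FPKM in the MV4-11 libraries labelled shCYTH4, against 25.2, 25.8 and 23.9 FPKM in MV4-11 shControl, also without overlap (log2 change -0.34, SE 0.14, adjusted p = 0.311). BIRC5, survivin, had 32.9, 26.9 and 25.4 FPKM in the MV4-11 libraries labelled shCYTH4, against 37.3, 31.7 and 31.2 FPKM in MV4-11 shControl, where replicate 1 overlapped the controls (log2 change -0.32 (SE 0.16)). AURKB, the kinase of the complex, had 39.6, 34.5 and 34.0 FPKM in the MV4-11 libraries labelled shCYTH4, against 39, 34.9 and 34.3 FPKM in MV4-11 shControl, with full overlap (log2 change -0.08 (SE 0.14)).

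In THP-1 the subunits split. BIRC5 had 38.5, 34.0 and 35.1 FPKM in THP-1 shCYTH4, against 27.1, 33.2 and 24.3 FPKM in THP-1 shControl, higher without overlap (log2 change 0.23, SE 0.16, adjusted p = 0.539). AURKB had 10.8, 9.01 and 10.7 FPKM in THP-1 shCYTH4, against 10.6, 12.4 and 11.3 FPKM in THP-1 shControl. Replicates 1 and 3 lay inside the control range, and the log2 change of -0.29 (SE 0.14) was the lowest of the 38. CDCA8 had 39.5, 35.4 and 39.7 FPKM in THP-1 shCYTH4, against 34.4, 37.5 and 30.9 FPKM in THP-1 shControl, with overlap (log2 change 0.04 (SE 0.13)). INCENP had a log2 change of 0.03 (SE 0.14).

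Among 11 spindle motors and microtubule binders, 6 were below 0 in MV4-11 and 3 in THP-1, and 0 passed the test with edgeR, DESeq2 or limma. At an unadjusted p under 0.05, KIF20A was lower in MV4-11 and PRC1 higher in THP-1, against 6.58% and 7.24% of all tested genes. KIF20A, a kinesin of the central spindle, had 13.2, 16.8 and 15.8 FPKM in the MV4-11 libraries labelled shCYTH4, against 20.3, 20.6 and 20.0 FPKM in MV4-11 shControl. The groups did not overlap (log2 change -0.49, SE 0.20, adjusted p = 0.284). KIF20A had 21.8, 15.6 and 27.3 FPKM in THP-1 shCYTH4, against 24.4, 18.5 and 14.4 FPKM in THP-1 shControl, a spread that covered both groups (log2 change 0.06 (SE 0.20)). PRC1, which bundles microtubules of the central spindle (ENSG00000198901, chromosome 15, 90966040 to 90994602, minus strand), had 18.5, 16.5 and 23.9 FPKM in THP-1 shCYTH4, against 14.9, 12.8 and 12.9 FPKM in THP-1 shControl. All 3 shCYTH4 libraries were above the controls and the test was missed (log2 change 0.43, SE 0.14, adjusted p = 0.133). PRC1 had 18.0, 17.9 and 16.2 FPKM in the MV4-11 libraries labelled shCYTH4, against 14.9, 14.4 and 17.2 FPKM in MV4-11 shControl, with overlap (log2 change 0.09 (SE 0.14)). PRC1 shares its strand with an overlapping gene without a symbol that averaged 10.3 FPKM, so its level is uncertain.

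TPX2, which activates Aurora A on the spindle, had 59.0, 52.5 and 54.5 FPKM in the MV4-11 libraries labelled shCYTH4, against 53.3, 56.4 and 61.1 FPKM in MV4-11 shControl, and 60.2, 50.0 and 78.7 FPKM in THP-1 shCYTH4, against 62.5, 52.7 and 52.6 FPKM in THP-1 shControl. TPX2 overlapped in both lines (log2 changes -0.12 and 0.06), and without shCYTH4 replicate 3 its THP-1 value was -0.11. ASPM had 1.09, 0.782 and 0.766 FPKM in the MV4-11 libraries labelled shCYTH4, against 0.663, 1.80 and 1.36 FPKM in MV4-11 shControl. It had the lowest estimate of these 11 in MV4-11, with an interval of -1.28 to 0.07 that included 0, and a log2 change of -0.60, or -0.90 without shControl replicate 1, its lowest library. KIF2C, a microtubule depolymerase, had 37.4, 38.6 and 35.5 FPKM in the MV4-11 libraries labelled shCYTH4, against 37.3, 37.2 and 37.4 FPKM in MV4-11 shControl, nearly level (log2 change -0.08 (SE 0.12)). NUSAP1, a spindle binder, had 23.5, 20.8 and 29.1 FPKM in THP-1 shCYTH4, against 33.2, 21.5 and 27.0 FPKM in THP-1 shControl, with overlap (log2 change -0.26 (SE 0.16)). KIF11, the bipolar spindle kinesin, had a THP-1 log2 change of -0.27 (SE 0.20). In MV4-11 the values for KIF11, KIF23, KIF4A, NUSAP1, DLGAP5 and HMMR ran from -0.11 to 0.09, and in THP-1 those for KIF23, KIF4A, DLGAP5 and HMMR ran from -0.01 to 0.18.

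TOP2A, the topoisomerase that untangles sister chromatids, stood alone in its role. TOP2A had 25.9, 20.2 and 21.3 FPKM in the MV4-11 libraries labelled shCYTH4, against 13.0, 27.9 and 27.4 FPKM in MV4-11 shControl. Replicate 1 of the controls was lower than the other 5 libraries, and the log2 change was -0.09 (SE 0.26), or -0.35 without that library. TOP2A had 23.3, 21.4 and 40.0 FPKM in THP-1 shCYTH4, against 27.4, 19.7 and 23.6 FPKM in THP-1 shControl, with replicate 3 of the shCYTH4 group the highest (log2 change 0.15 (SE 0.26), or -0.16 without it).

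In MV4-11 shControl replicate 1 the members also differed by transcript length. Among the 8 tested members with transcripts over 4 kb, the median in that library was -0.36, against 0.00062 for the 9 under 2 kb. Over all tested genes with a length, the same medians were -0.08 and 0.08. Such a trend was not particular to that library. The medians over all tested genes were -0.08 and 0.09 in MV4-11 shCYTH4 replicate 1 and -0.09 and 0.10 in THP-1 shControl replicate 2. They ran the other way in MV4-11 shCYTH4 replicate 3 (0.10 and -0.09) and THP-1 shCYTH4 replicate 3 (0.11 and -0.13). In this last library the members had 0.27 over 4 kb and 0.17 under 2 kb. With a length term per library, the MV4-11 log2 change was -0.08 for TOP2A and -0.74 for CDC20, which was called (adjusted p = 0.0384). Between the control groups CCNB1 and PLK1 were no longer called with that term (adjusted p = 0.0586 for CCNB1 and 0.0607 for PLK1).

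The control libraries of the lines differed in 15 of the 38 members, 11 higher and 4 lower in MV4-11 than in THP-1. This is 39.5% of the members, against 51.4% of all tested genes (24.6% higher and 26.7% lower), so the share was not above the background. The log2 change was above 0 for 23 members and below 0 for 15, with a median of 0.08, against 49.7% and 50.3% of all tested genes. In 10 members the MV4-11 controls lay above the THP-1 controls without overlap, and in 5 below, against 29.4% and 31.2% of all tested genes. The lines also differ in many other ways, and their libraries cannot be told apart from the line.

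Here CDC20 stood at the low end. CDC20 had 98.9, 101 and 87.9 FPKM in MV4-11 shControl, against 357, 452 and 308 FPKM in THP-1 shControl. It was 3.84-fold lower in MV4-11 (log2 change -1.94, SE 0.17, adjusted p = 1.43e-07, edgeR). TTK was also lower, with 1.36, 4.02 and 3.72 FPKM in MV4-11 shControl, against 6.62, 5.54 and 6.43 FPKM in THP-1 shControl (log2 change -1.02, SE 0.33, adjusted p = 0.0213). Its lowest library was MV4-11 shControl replicate 1. Over the 24 alternatives, which include the fit without that library, the TTK log2 change was -1.28 to -0.69. NUF2 averaged 3.97 ± 0.922 FPKM in MV4-11 shControl and 7.16 ± 1.28 FPKM in THP-1 shControl (n = 3 each), with a log2 change of -0.83 (SE 0.31). KIF2C averaged 37.3 ± 0.108 FPKM in MV4-11 shControl and 51.2 ± 3.2 FPKM in THP-1 shControl, with a log2 change of -0.44 (SE 0.12).

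At the high end stood AURKB, with 39, 34.9 and 34.3 FPKM in MV4-11 shControl, against 10.6, 12.4 and 11.3 FPKM in THP-1 shControl. It was 3.20-fold higher in MV4-11 (log2 change 1.68, SE 0.14, adjusted p = 1.15e-07). UBE2C had 93.2, 81.4 and 83.4 FPKM in MV4-11 shControl, against 35.2, 33.2 and 32.6 FPKM in THP-1 shControl, 2.59-fold higher (log2 change 1.38, SE 0.13, adjusted p = 3.19e-07). CDC25B averaged 16.7 ± 0.162 FPKM in MV4-11 shControl and 6.75 ± 1.15 FPKM in THP-1 shControl (log2 change 1.33 (SE 0.16)). CENPA averaged 15.3 ± 2.01 FPKM in MV4-11 shControl and 6.88 ± 0.61 FPKM in THP-1 shControl (log2 change 1.17 (SE 0.19)), and BUB3 averaged 30.8 ± 2.25 FPKM in MV4-11 shControl and 17.7 ± 2.73 FPKM in THP-1 shControl (log2 change 0.82 (SE 0.13)). CDC20 and UBE2C, which act on the same complex, thus lay on opposite sides, with CDC20 the lowest of the 38 and UBE2C the second highest. The 6 other genes called higher, CDCA8, CCNB2, PLK1, CCNB1, MAD2L1 and CCNA2, had log2 changes of 0.37 to 0.57. Without THP-1 shControl replicate 3 the number of members called was 8. Over the 12 fits leaving out 1 library, 5398 to 6709 of all tested genes were called. The share in the fit without that library is not given here, so the 8 lack a background. CDC20, KIF2C, AURKB, UBE2C, CDC25B, CENPA, BUB3 and CDCA8 were called in all 24 alternatives run. Of the other 7, CCNB2 was called in 22, TTK in 20, CCNB1 in 18, PLK1 in 17, NUF2 in 16, MAD2L1 in 13 and CCNA2 in 10.

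**Figure D4:**
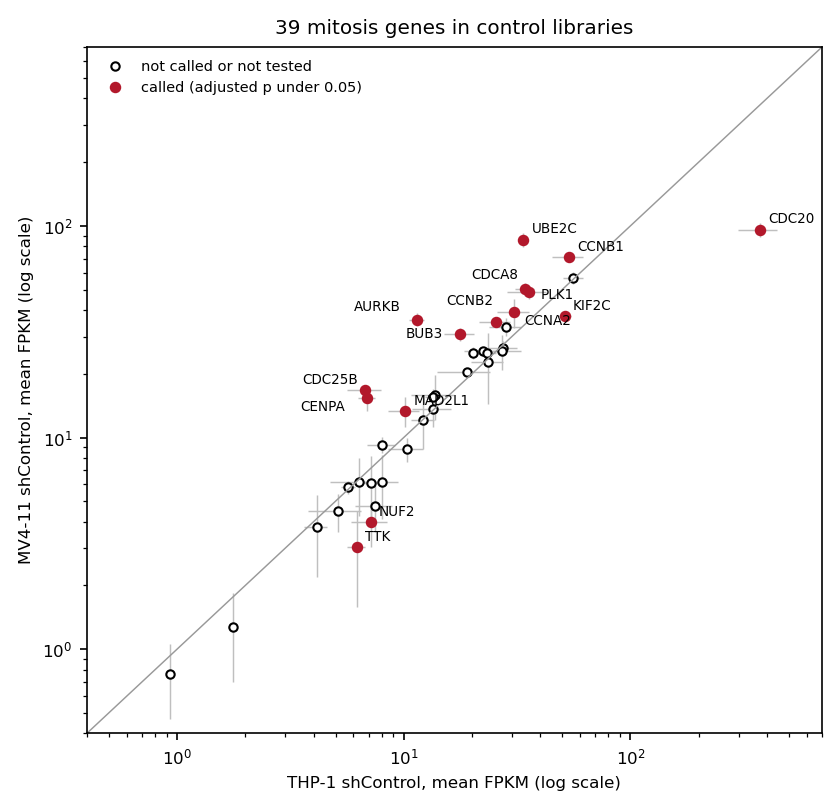
Mean FPKM of the 39 mitosis genes in MV4-11 shControl (vertical) against THP-1 shControl (horizontal), both on log scales, with SD bars (n = 3 each) and the line of equal level. Filled points are the 15 genes called; CDC20 lies farthest below the line (96.0 against 372 FPKM) and AURKB and UBE2C lie farthest above it.

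Other cell cycle genes were listed by role for comparison. Of 64 other mitotic genes, 0 were called by edgeR in either hairpin comparison, and by DESeq2 and limma also 0. At an unadjusted p under 0.05, 6 were higher and 6 lower in MV4-11, and 1 was higher and 2 lower in THP-1, with a median of -0.01 in each line. The 6 and 6 in MV4-11 are 9.4% each. The MV4-11 median was -0.06 without shCYTH4 replicate 1 and -0.06 without shControl replicate 1. The THP-1 median was -0.12 without shCYTH4 replicate 3, so it moved with that library. Of all tested genes, 7.29% were higher and 6.58% lower unadjusted in MV4-11, and 7.24% and 8.81% in THP-1. These shares are also the background of the lists that follow. Of 20 genes of the anaphase promoting complex and its regulators, 0 were called by any of these tools, with 3 higher and 1 lower unadjusted in MV4-11 and 2 and 1 in THP-1. Of 17 tested regulators of the DREAM and MuvB complexes, 0 were called by any of these tools, with 3 higher and 1 lower unadjusted in MV4-11 and 1 and 3 in THP-1. Their median was 0.19 in MV4-11, or 0.24 without shCYTH4 replicate 1 and 0.13 without shControl replicate 1. In THP-1 their median was -0.11, or -0.13 without shCYTH4 replicate 3.

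In THP-1, 1 of 14 tested G1 genes rose and 1 of 32 S phase genes fell, beside 0.607% of all tested genes called higher and 1.04% called lower. CDKN1A, the CDK inhibitor p21, had 30.4, 30.7 and 25.9 FPKM in THP-1 shCYTH4, against 15.8, 18.9 and 9.90 FPKM in THP-1 shControl. It rose without overlap (log2 change 0.85, SE 0.20, adjusted p = 0.0474), and the call was lost in 13 of 24 alternatives. POLD1, the catalytic subunit of DNA polymerase delta, had 31.1, 30.9 and 28.4 FPKM in THP-1 shCYTH4, against 39.6, 49.6 and 48.5 FPKM in THP-1 shControl. It fell without overlap (log2 change -0.72, SE 0.15, adjusted p = 0.0331), and the call was lost in 8 of 24 alternatives. Of the 32 S phase genes, 29 were below 0 in THP-1, with a median of -0.23, against 51.1% of all tested genes. Unadjusted, 9 of the 32 were lower and 0 higher in THP-1 at p under 0.05, against 8.81% and 7.24% of all tested genes, and of the G1 genes 3 were lower and 1 was higher. DESeq2 called POLD1 and LIG1, a DNA ligase, lower and CDKN1A higher there, and limma called POLD1 and CDKN1A. Without THP-1 shCYTH4 replicate 3, 25 S phase genes were below 0 with a median of -0.15, 6 were lower and 1 higher unadjusted, and POLD1, CDKN1A, CDK6 and CDKN1B were called, of which CDKN1A alone was higher.

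In MV4-11, 19 of the 32 S phase genes were above 0, with a median of 0.09, against 50.1% of all tested genes. The median was 0.06 without shCYTH4 replicate 1 and 0.06 without shControl replicate 1, with 23 genes above 0 in each of these fits. By edgeR 0 genes of these 2 lists were called in MV4-11. Unadjusted, 4 S phase genes (12.5%) were higher and 0 lower, and 2 G1 genes were higher and 1 lower. Of all tested genes, 7.29% were higher and 6.58% lower. DESeq2 called MCM6 higher there and limma called CDKN2A lower. LIG1, CDK6, CDKN1B, MCM6 and CDKN2A were chosen after their values were seen.

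Set beside the mitosis genes, the S phase median per library was -0.18, -0.11 and -0.42 in THP-1 shCYTH4, against -0.09, -0.05 and 0.07 in THP-1 shControl. The library with the highest mitosis median, THP-1 shCYTH4 replicate 3, had the lowest S phase median. In MV4-11 the S phase median was 0.16, 0.08 and 0.07 in the libraries labelled shCYTH4, against 0.05, 0.02 and -0.08 in shControl. Both replicates 2 and 3 of MV4-11 shCYTH4 were thus above 0 for S phase genes and below 0 for mitosis genes. Whether cell cycle position differed between the cultures was not tested.

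**Figure D5:**
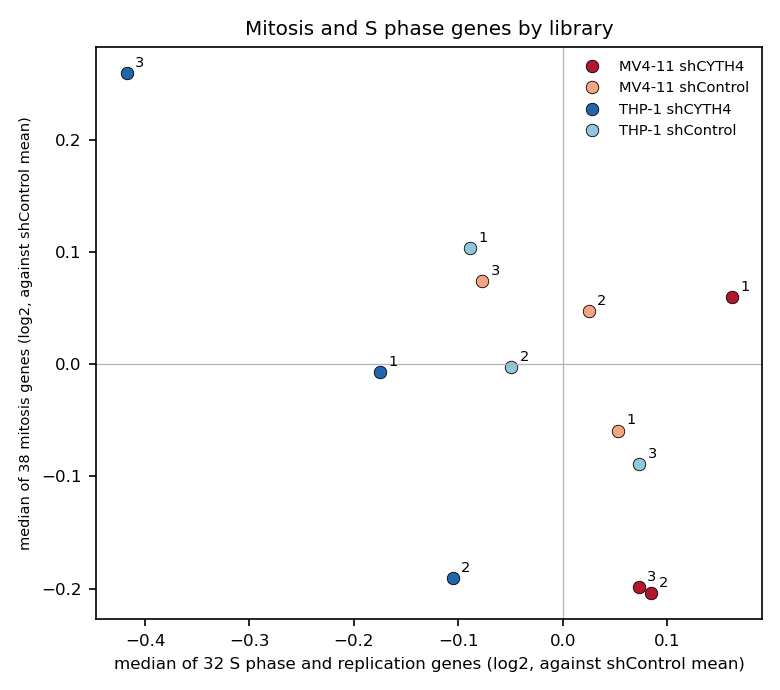
Each point is 1 library, numbered by replicate: the median of 32 S phase genes (horizontal) and of 38 mitosis genes (vertical), as log2 CPM minus the control mean of the line. THP-1 shCYTH4 replicate 3 lies alone at -0.42 and 0.26, and MV4-11 shCYTH4 replicates 2 and 3 lie at the bottom right, at 0.08 and -0.20 and at 0.07 and -0.20.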

How the data were processed

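RNA-seq of 12 libraries was analysed, 3 in each of 4 groups taken from the labels; short column names SC and Sh were read as shControl and shCYTH4. Libraries were made from poly(A) RNA by the dUTP method, per the labels. The deposited table holds, per the file headers, an estimated count and an FPKM value per gene and library, as the authors made them, in 24 columns, of which 0 lacked a sample. Fastp, StringTie and edgeR were used, per the submitters' processing notes, with no version. Aligner, build, annotation and strand setting: not given in the sources used here. All 39 positions overlap the GENCODE 29 gene of the same identifier on GRCh38, and 9 are identical. Of the count values from 1 to 32, 31.5% are multiples of 4, against 25% of the whole numbers in that range. Whether 1 count is 1 fragment is thus uncertain, and counts divided by 4 were an alternative.

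Estimated counts were tested with edgeR 4.0.16 (quasi-likelihood, TMM scaling with factors of 0.916 to 1.08, R 4.3.3). A single fit of 4 group means over all 12 libraries left 8 residual degrees of freedom. Genes reaching 1 FPKM in 3 or more libraries (12350) were tested, and a gene was called at a Benjamini-Hochberg adjusted p under 0.05 over all of them. SE and 95% intervals come from that fit. The code was tested on simulated counts. DESeq2 1.42.0, limma 3.58.1, other filters, scalings and thresholds, a replicate block and fits without each library were alternatives; a term for transcript length was added after the values were seen.

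The mitosis genes and the other lists were chosen with earlier results of these data known. Named genes are CYTH4; members called in a hairpin comparison; per role the most abundant member and the one with the largest change in each line; the 5 called members with the largest difference between control groups in each direction; and called genes of the other lists. The remaining genes named with values were chosen after their values were seen. Several members overlap other genes, with which their reads can be confused. CENPA, NUSAP1 and PRC1 overlap a gene on the same strand. CCNA2, CDC25C, FOXM1, KIF20A and KIF4A overlap at least 1 gene on the other strand. Whether reads from the other strand were separated depends on the strand setting, which is not given. The retrocopies PTTG3P and KIF4B averaged 0.0274 and 0.0776 FPKM.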

Additional observations from a re-analysis of the deposited data

How the results depend on the processing

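CDC20 was called lower in MV4-11 in 11 of 24 alternatives, with a log2 change of -0.81 to -0.64, and the direction held in all 24. The number of members called in MV4-11 was 0 with no filter, with edgeR's own filter, with the replicate block and at an adjusted p under 0.01, and 2 with DESeq2. For the difference between the lines, 1 member was called with quantile scaling, DESeq2 and limma at either pseudocount. All genes called were 451 (MV4-11), 612 (THP-1) and 440 (difference) with DESeq2, 477 (THP-1) and 162 (difference) with limma on log2(FPKM + 1), 69 (difference) with quantile scaling and 162 (difference) with no filter, against 139, 204 and 107. They were 78 (THP-1) when only the libraries compared were fitted, which gives no value for the difference, and 46, 15 and 14 at an adjusted p under 0.01. At that threshold 9 members were called between the control groups. The share of all tested genes at that threshold is not given here (it was 51.4% at 0.05), so this count is not set against a background.

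Leaving out 1 library at a time gave 0 to 1 members called in MV4-11, with a median of -0.22 to -0.04 and 74 to 398 genes called. In THP-1 it gave 0 members, a median of -0.12 to 0.16 and 15 to 835 genes. The difference gave 0 to 1 members, a median of -0.32 to 0.015 and 32 to 913 genes. The controls gave 8 to 17 members, a median of 0.04 to 0.17 and 5398 to 6709 genes. The highest gene counts of the hairpin comparisons came without THP-1 shCYTH4 replicate 3.

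Same-numbered libraries did not deviate together (correlations of -0.17, -0.12 and -0.03 in MV4-11 and -0.21, 0.09 and -0.05 in THP-1 over genes). The labels do not say whether the replicate numbers pair the libraries. With 3 libraries a group, these correlations cannot decide it. The replicate block called 0 members in MV4-11, 23 genes in THP-1, 47 genes for the difference and 9 members between the controls. The share of all tested genes called between the controls with that block is not given here, so the 9 lack a background. With 3 libraries a group, the SE of a member's log2 change was 0.12 to 0.33, which limits what can be detected.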
